A study of Homo sapiens with 2 samples.

Results

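Cadherins and protocadherins are calcium-dependent cell adhesion molecules of the plasma membrane, and 93 of the 26447 named genes measured here carry their symbols. They were chosen by symbol, as every gene named CDH followed by a number or named with PCDH at the start, without antisense genes. Of these, 18 are classical cadherins, 5 are other cadherins, 57 are clustered protocadherins and 13 are non-clustered protocadherins. The clustered set includes the pseudogenes PCDHB17P, PCDHB18P, PCDHB19P and PCDHGB8P. Only PCDHB18P of these had reads, 0 in the NRP2 hairpin library and 4 in the control library. RNA sequencing compared 1 library of C4-2B ENZR cells that carried a short hairpin RNA against the coding sequence of NRP2 with 1 library of the same cells that carried a non-targeting hairpin. C4-2B ENZR is a line of human prostate cancer cells with resistance to enzalutamide, an antagonist of the androgen receptor, and both cultures grew in 20 µM of it. Both hairpins were delivered by lentivirus and held by antibiotic selection, and the knockdown rests on a single hairpin. With 1 library per group there is no replicate error and no test between the conditions, so each difference describes these 2 libraries.

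Classical cadherins bind a cadherin of the same kind on a neighbouring cell, and their cytoplasmic tails bind catenins, which link them to actin. E-cadherin holds luminal epithelial cells of the prostate together, and its loss is a known feature of cells that leave the epithelial state. Clustered protocadherins lie in 3 tandem arrays named alpha, beta and gamma and are best known from neurons, where each cell expresses its own combination and uses it to recognize itself. In the alpha and gamma arrays, each gene is a variable first exon with its own promoter, spliced to constant exons that the whole array shares. Genes of the beta array have a single coding exon. A conserved element with the core letters CGCT, at which CTCF and cohesin act, lies before most variable exons.

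Sequence around that core is shown for some of the clustered members whose values are given below. Promoter windows of 300 bases, from 250 before to 50 after the start of the gene, were taken from RefSeq (GRCh38.p14) for 70 of the 93 members. Each line gives 60 bases, 5′ to 3′, with CGCTG in capitals.
PCDHA1 (chr5:140786075-140786134, plus strand): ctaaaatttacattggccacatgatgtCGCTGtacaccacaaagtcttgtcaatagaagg
PCDHA10 (chr5:140855830-140855889, plus strand): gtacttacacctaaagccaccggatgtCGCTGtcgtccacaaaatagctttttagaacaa
PCDHB2 (chr5:141094533-141094592, plus strand): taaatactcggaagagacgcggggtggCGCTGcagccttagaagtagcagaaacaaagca
PCDHB3 (chr5:141100382-141100441, plus strand): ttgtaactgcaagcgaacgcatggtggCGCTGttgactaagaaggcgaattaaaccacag
PCDHB5 (chr5:141135168-141135227, plus strand): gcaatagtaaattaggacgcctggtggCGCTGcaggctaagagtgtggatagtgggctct
PCDHB13 (chr5:141213854-141213913, plus strand): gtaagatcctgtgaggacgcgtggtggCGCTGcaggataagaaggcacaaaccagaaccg
PCDHGB1 (chr5:141350014-141350073, plus strand): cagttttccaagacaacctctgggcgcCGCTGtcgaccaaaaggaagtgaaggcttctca
PCDHGB4 (chr5:141387606-141387665, plus strand): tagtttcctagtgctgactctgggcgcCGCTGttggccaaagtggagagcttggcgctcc
PCDHGA8 (chr5:141392557-141392616, plus strand): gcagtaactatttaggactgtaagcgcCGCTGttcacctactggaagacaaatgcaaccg
PCDHGB5 (chr5:141397852-141397911, plus strand): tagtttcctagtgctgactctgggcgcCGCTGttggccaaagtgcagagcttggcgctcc
PCDHGA10 (chr5:141412920-141412979, plus strand): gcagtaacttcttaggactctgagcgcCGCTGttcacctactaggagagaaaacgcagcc
PCDHGC3 (chr5:141475869-141475928, plus strand): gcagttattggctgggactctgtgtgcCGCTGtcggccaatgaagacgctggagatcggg

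The letters before CGCTG differed between the arrays. ATGTCGCTG was found, on either strand, in 6 of 13 alpha genes, 0 of 14 beta genes and 0 of 20 gamma genes with a window, against 0.106% of all 27305 genes. GTGGCGCTG was found in 12 of 14 beta genes and in no alpha or gamma gene, against 0.681% of all genes. GNCGCTGT was found in 17 of 20 gamma genes, 5 of 13 alpha genes and 1 of 14 beta genes, against 5.28% of all genes. The short core CGCTG, which all of these contain, was in 41 of 47 clustered genes and in 51.7% of all genes, so that it says little alone. The longer strings were chosen after the windows had been read, and a match is a description of letters, not of binding. The windows shown for PCDHGB4 and PCDHGB5 share 59 of 60 bases, although PCDHGA8 lies between these genes in the array.

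Most clustered genes also share coding sequence, which limits how far reads can be given to 1 gene. The last 459 coding bases were identical in 12 of 15 alpha transcripts and the last 375 in 18 of 22 gamma transcripts of GENCODE 29, taking the longest protein-coding transcript of each gene. Their last 60 bases, stop codon included, were as follows (GRCh38).
PCDHA (chr5:141009878-141009937, plus strand): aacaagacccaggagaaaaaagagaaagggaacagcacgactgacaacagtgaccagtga
PCDHG (chr5:141511114-141511173, plus strand): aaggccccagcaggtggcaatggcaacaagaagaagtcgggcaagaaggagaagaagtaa
Of all runs of 50 bases in a transcript, a median of 58.0% in the alpha array, 47.3% in the gamma array and 14.8% in the beta array also occurred in a transcript of another gene. The median was 0% for type I and for type II classical cadherins. Read length is unknown here. RSEM 1.2.15 is among the tools the submitters name, but how reads that match several genes were split was not stated. Values of single alpha and gamma genes are thus uncertain, and sums over an array are given beside them. The counting intervals given below take the reads of a gene as they stand. They leave out any error in how reads were split between genes.

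The deposited values are TMM-normalized CPM, that is, reads of a gene scaled to library size by the authors. The columns sum to 1084413 in the NRP2 hairpin library and 1024943 in the control library rather than to equal totals, for a reason not given in the sources used here, and over named genes this makes every ratio 1.06-fold higher than equal totals would. Every value was a whole multiple of 1 read, which gave back 22949961 reads on named genes in the NRP2 hairpin library and 21014142 in the control library. These may be counted reads or rounded estimates, which whole values cannot tell apart. NRP2 itself had 7 reads in the NRP2 hairpin library and 20 in the control library, a CPM ratio of 0.339 (95% counting interval 0.121 to 0.835). All 4 epithelial markers, CDH1 among them, and all 4 prostate luminal markers examined were above 1 CPM in both libraries, with summed levels of 1953 CPM in the NRP2 hairpin library and 1475 CPM in the control library for epithelial and 1578 CPM in the NRP2 hairpin library and 1435 CPM in the control library for luminal markers. Markers of other cell types in the NRP2 hairpin against the control library summed to 3.87 CPM against 4.09 CPM for endothelium (1 of 4 at a mean of 1 CPM or more), 2.83 CPM against 3.55 CPM for fibroblasts (1 of 5) and 10.0 CPM against 7.01 CPM for leukocytes (1 of 3). DCN, which marks fibroblasts, and NEUROD1, which marks neural cells, had 0 reads in both libraries. The part of these markers in the results below was not tested.

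A gene was compared where its mean over both libraries was at least 1 CPM, which held for 17 of the 93 members and 13316 genes in all. The change was log2((NRP2 hairpin CPM + 1)/(control CPM + 1)), which understates the change of low genes, and a gene was called at 1.5-fold on that scale. Ratios are plain ratios of CPM with 95% counting intervals from the reads, which cover counting error only: reads can be copies of 1 molecule, and each culture was sequenced once. Of the 17 members compared, 2 were higher in the NRP2 hairpin library, against a background of 5.78% of all compared genes, and 4 were lower, against a background of 3.57%. The higher members were CDH15 and PCDH1, and the lower members were CDH18, CDH26, PCDH19 and PCDHGA8. An exact conditional binomial test on the reads, adjusted over all compared genes (Benjamini-Hochberg), compares these 2 libraries and not the conditions, and it called 3 of the 17 higher and 6 lower, against backgrounds of 30.2% and 22%. The median log2 change was -0.06 over the 17 members and 0.03 over all compared genes. Of the members compared, 3 passed the mean with fewer than 1 CPM in 1 of the libraries, namely CDH18, PCDHGA8 and PCDHA1. A lower level in such bulk RNA can mean fewer cells with the RNA or less RNA per cell, which cannot be told apart.

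**Figure D1:**
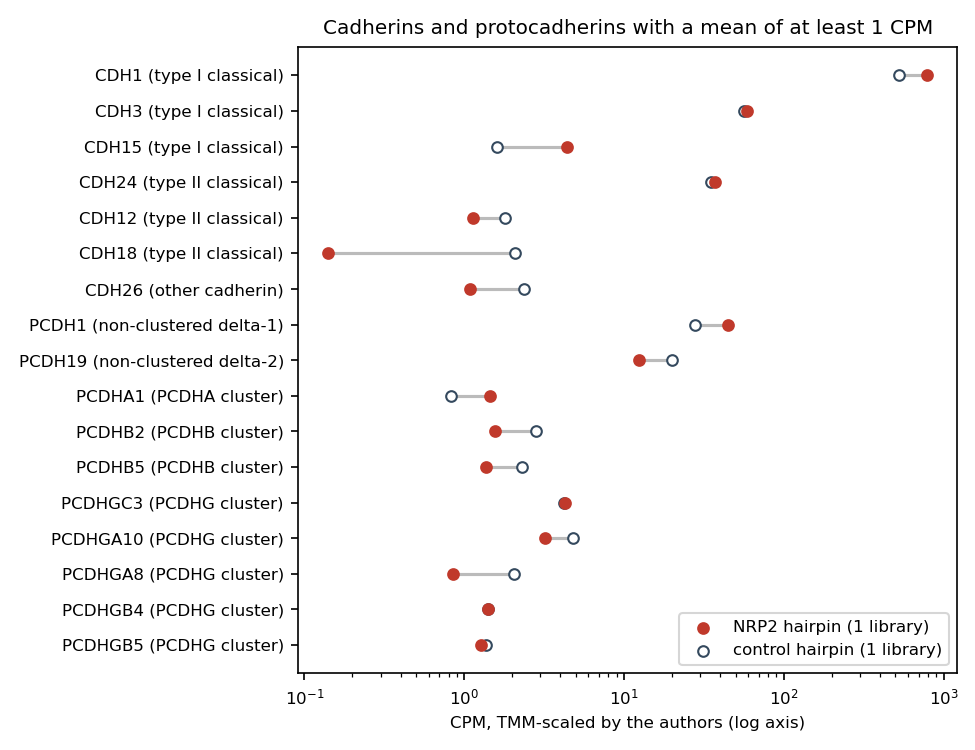
Level of the 17 compared members in CPM on a log axis, with filled points for the NRP2 hairpin library and open points for the control library, 1 library each. CDH1 stands highest, at 788 CPM for the NRP2 hairpin and 529 CPM for the control, and CDH18 shows the widest gap, at 0.141 CPM for the NRP2 hairpin and 2.09 CPM for the control.

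**Figure D2:**
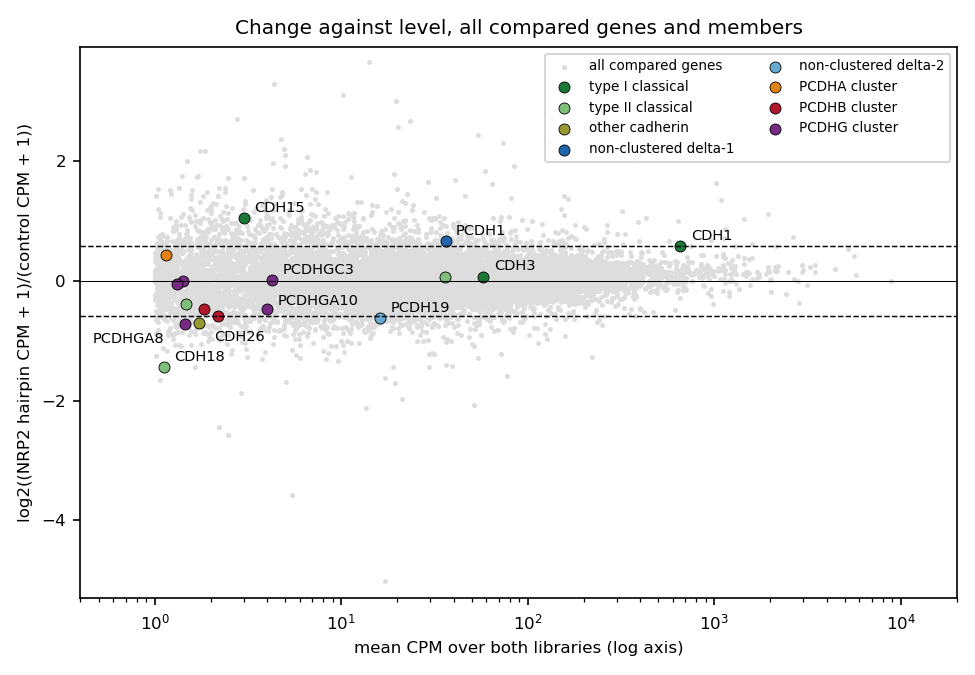
Log2 change, NRP2 hairpin over control with 1 CPM added to each, against mean CPM on a log axis, for all 13316 compared genes in grey and the 17 members in colour by subgroup. Dashed lines mark 1.5-fold, and CDH1, at 0.57, lies just inside the upper line.

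Among type I classical cadherins, E-cadherin RNA dominated and was higher in the NRP2 hairpin library. CDH1, which encodes E-cadherin, was at 788 CPM in the NRP2 hairpin library and 529 CPM in the control library, from 16708 and 10873 reads, a ratio of 1.49 (1.45 to 1.53). Its log2 change of 0.57 fell just short of the 1.5-fold call. With equal library totals the change was 0.49, and with both libraries given the same distribution of values (quantile normalization) it was 0.44. Both lay under 0.54, the lower limit of the counting interval on that scale. CDH1 held 80.7% of all reads on the 93 members in the NRP2 hairpin library (exact 95% interval 80.2 to 81.3) and 74.6% in the control library (73.9 to 75.3). CDH15, the muscle cadherin M-cadherin, was at 4.39 CPM in the NRP2 hairpin library and 1.61 CPM in the control library, from 93 and 33 reads, 2.73-fold higher (1.82 to 4.19) with a log2 change of 1.05. CDH3, the P-cadherin of basal epithelium and placenta, was nearly level at 59.2 CPM in the NRP2 hairpin library and 56.5 CPM in the control library, a ratio of 1.05 (0.967 to 1.14). CDH4, the retinal cadherin, had 16 reads in the NRP2 hairpin library and 8 in the control library, with an interval that included no difference (0.782 to 5.23). CDH2, the N-cadherin of neurons and mesenchymal cells, had 2 reads in the NRP2 hairpin library and 0 in the control library. A count of 0 allows up to 0.146 CPM in the control library. N-cadherin RNA was thus at most barely detectable in both libraries, while E-cadherin RNA was abundant in both.

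Type II classical cadherins, many of them known from brain, were mostly near or at 0 reads. CDH24 alone was clearly expressed, at 36.9 CPM in the NRP2 hairpin library and 35.3 CPM in the control library, a ratio of 1.05 (0.945 to 1.16). CDH18 had the largest change of all members by log2, -1.44, with 0.141 CPM in the NRP2 hairpin library and 2.09 CPM in the control library. These levels rest on 3 reads in the NRP2 hairpin library and 43 in the control library, a control to NRP2 hairpin ratio of 14.8 with a counting interval from 4.74 to 74.6. CDH12, a neighbour in kind that is also known from brain, was at 1.13 CPM in the NRP2 hairpin library and 1.80 CPM in the control library, from 24 and 37 reads, and its interval included no difference (ratio 0.628, 0.360 to 1.08). CDH19 had 4 reads in the NRP2 hairpin library and 7 in the control library, and the other 9 type II genes had at most 6 reads in a library. CDH5, the cadherin of vascular endothelium, was among them with 4 reads in the NRP2 hairpin library and 0 in the control library, and CDH11, known from mesenchymal cells, with 0 in the NRP2 hairpin library and 1 in the control library. CDH6, CDH7 and CDH20 had 0 reads in both libraries.

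Cadherins outside the classical types held 2 genes with opposite differences at low levels. CDH26 was at 1.08 CPM in the NRP2 hairpin library and 2.39 CPM in the control library, from 23 and 49 reads, 2.20-fold lower (1.31 to 3.78). CDH23, part of the tip link of inner ear hair cells, had 18 reads in the NRP2 hairpin library and 2 in the control library, a ratio of 8.72 with a wide interval from 2.09 to 77.5. Its mean lay under 1 CPM, so it was not among the genes compared. CDH13 had 4 reads in the NRP2 hairpin library and 5 in the control library, CDH17 had 2 in the NRP2 hairpin library and 3 in the control library, and CDH16 had 0 in both.

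Of the non-clustered protocadherins, which are single genes at separate places, PCDH1 and PCDH19 were clearly expressed and lay on opposite sides. PCDH1, known from airway epithelium, was at 44.7 CPM in the NRP2 hairpin library and 27.8 CPM in the control library, from 948 and 572 reads, 1.61-fold higher (1.45 to 1.78) with a log2 change of 0.66. PCDH19, an X-linked gene known for its role in epilepsy, was at 12.5 CPM in the NRP2 hairpin library and 19.9 CPM in the control library, from 265 and 408 reads, 1.59-fold lower (1.36 to 1.86) with a log2 change of -0.63. PCDH1 fell just short of the call when the libraries were given equal totals, at a log2 change of 0.58, while PCDH19 then stood at -0.70.

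Fewer reads fell on the other non-clustered genes, which were not among the genes compared. PCDH17, known from synapses, had 24 reads in the NRP2 hairpin library and 8 in the control library (ratio 2.91, 1.26 to 7.48). PCDH7 had 12 reads in the NRP2 hairpin library and 4 in the control library, with an interval that included no difference (0.881 to 12.4). PCDH12, known from vascular endothelium, had 6 reads in the NRP2 hairpin library and 17 in the control library, 2.92-fold lower (1.10 to 9.06). Of the 4 endothelial markers, VWF had the most reads, with 72 in the NRP2 hairpin library and 77 in the control library. In the same order of libraries, PECAM1 had 6 and 0 reads, KDR had 0 and 7, and CDH5 had 4 and 0. PCDH8, PCDH9, PCDH10, PCDH15, PCDH18 and PCDH20 had at most 5 reads in a library.

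**Figure D3:**
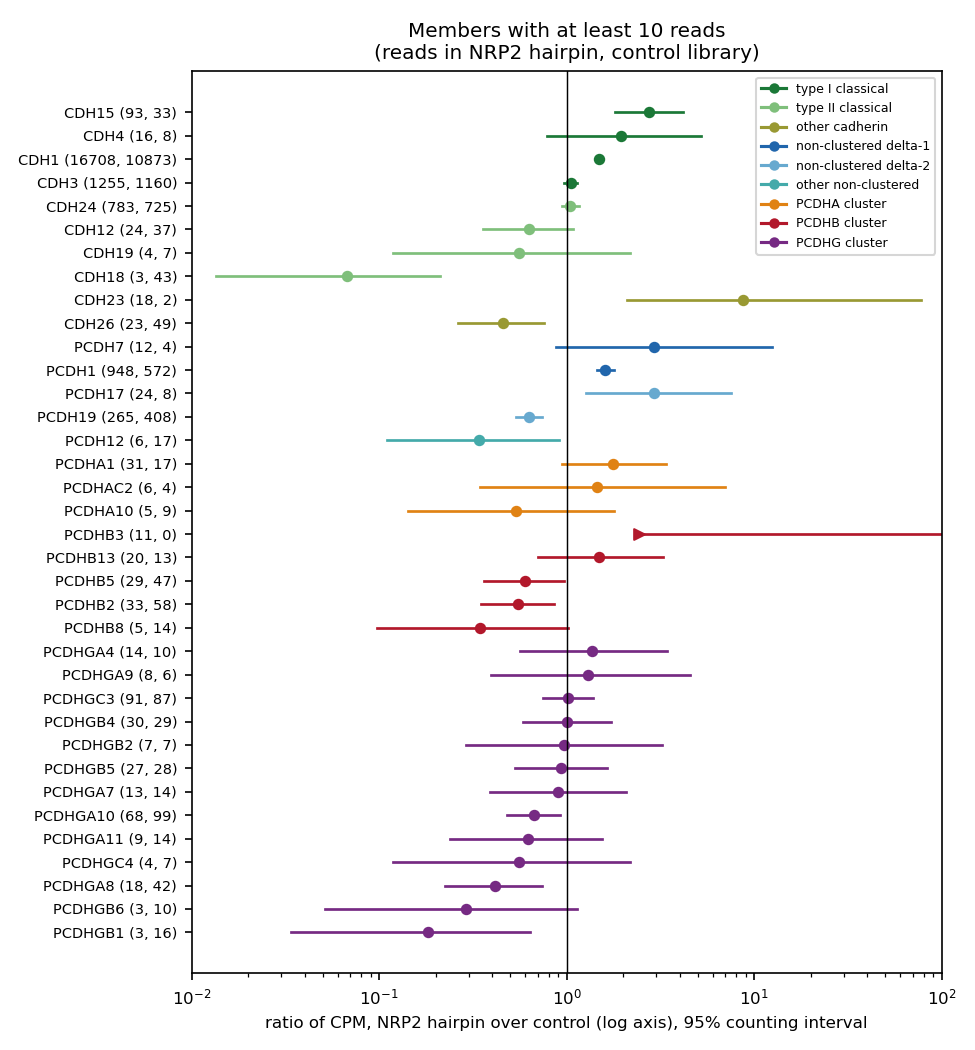
Ratio of CPM, NRP2 hairpin over control, on a log axis with 95% counting intervals, for the 36 members with at least 10 reads over both libraries, coloured by subgroup and with the reads of the NRP2 hairpin and then the control library in brackets. The arrow of PCDHB3, which had 0 control reads, marks its lower limit of 2.43, and intervals narrow with depth down to that of CDH1.

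Clustered protocadherins were low in both libraries, and the summed gamma array was lower in the NRP2 hairpin library, as were PCDHB2 and PCDHB5 of the beta array. All 57 together had 478 reads in the NRP2 hairpin library and 587 in the control library, 22.5 and 28.6 CPM, 1.27-fold lower (1.12 to 1.43). The 18 classical cadherins together stood at 891 CPM in the NRP2 hairpin library and 628 CPM in the control library, a ratio of 1.42 (1.39 to 1.45), with CDH1 holding 88.4% and 84.3% of their reads. The 8 clustered genes compared had a median log2 change of -0.26 and the 6 classical cadherins compared a median of 0.07 (-0.01 with equal library totals), with 3 of 8 and 4 of 6 above 0. In the group of 8, 1 gene was called lower and 0 higher, and in the group of 6, 1 was called lower and 1 higher. With shares of 3.57% lower and 5.78% higher over all compared genes, no contrast between groups this small is read from these counts.

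The alpha array was close to silent. Its 15 genes had 54 reads in the NRP2 hairpin library and 44 in the control library, 2.55 and 2.14 CPM, and the interval of the ratio included no difference (1.19, 0.784 to 1.81). PCDHA1, the gene at the 5′ end of the array, had the most reads, at 1.46 CPM in the NRP2 hairpin library and 0.828 CPM in the control library, from 31 and 17 reads (ratio 1.77, 0.948 to 3.40). Without it the array had 23 reads in the NRP2 hairpin library and 27 in the control library, again with an interval that included no difference (0.452 to 1.49). That sum over part of the array depends on how reads of the shared exons were split. PCDHA10 had 5 reads in the NRP2 hairpin library and 9 in the control library, PCDHAC2 had 6 in the NRP2 hairpin library and 4 in the control library, and PCDHA7, PCDHA12, PCDHA13 and PCDHAC1 had 0 in both.

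In the beta array, 19 genes had 114 reads in the NRP2 hairpin library and 149 in the control library, 5.38 and 7.25 CPM, 1.35-fold lower (1.05 to 1.74). This rests on PCDHB2 and PCDHB5, which held 54.4% of these reads in the NRP2 hairpin library (exact 95% interval 44.8 to 63.7) and 70.5% in the control library (62.5 to 77.7). Without them, a sum chosen after seeing the data, the other 17 genes had 52 reads in the NRP2 hairpin library and 44 in the control library, with an interval that included no difference (ratio 1.14, 0.752 to 1.75). PCDHB2 was at 1.56 CPM in the NRP2 hairpin library and 2.82 CPM in the control library, from 33 and 58 reads, 1.81-fold lower (1.16 to 2.87). Its log2 change of -0.58 was just short of the call, and with equal library totals it was -0.63, past it. PCDHB5 was at 1.37 CPM in the NRP2 hairpin library and 2.29 CPM in the control library, from 29 and 47 reads, 1.67-fold lower (1.03 to 2.76). PCDHB3, which lies between these 2 genes and carries the same GTGGCGCTG, went the other way. It had 11 reads in the NRP2 hairpin library and 0 in the control library, and the counting interval of the ratio starts at 2.43. PCDHB13 had 20 reads in the NRP2 hairpin library and 13 in the control library (ratio 1.49, 0.706 to 3.26) and PCDHB8 had 5 in the NRP2 hairpin library and 14 in the control library (ratio 0.346, 0.0975 to 1.02), and both intervals included no difference. Of the runs of 50 bases in the transcript of PCDHB8, 49.3% occurred in another gene, and 24.2% of those of PCDHB13, so their reads are uncertain too.

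The gamma array was the most expressed of the 3, with 310 reads in the NRP2 hairpin library and 394 in the control library, 14.6 and 19.2 CPM, 1.31-fold lower (1.13 to 1.53). The 12 A-type genes had 6.56 CPM in the NRP2 hairpin library and 9.88 CPM in the control library, 1.51-fold lower (1.21 to 1.88). The 8 B-type genes, at 3.58 CPM in the NRP2 hairpin library and 4.58 CPM in the control library, had an interval that included no difference (0.571 to 1.07), as had the 3 C-type genes, at 4.48 CPM in the NRP2 hairpin library and 4.72 CPM in the control library (0.707 to 1.27). All 3 types share the constant exons, so the sum over 1 type, unlike that over the array, depends on how reads were split. Whether the types differ from one another was not tested.

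PCDHGA8 was the only clustered gene past the 1.5-fold call. It was at 0.849 CPM in the NRP2 hairpin library and 2.04 CPM in the control library, from 18 and 42 reads, 2.41-fold lower (1.36 to 4.45) with a log2 change of -0.72. PCDHGA10 was at 3.21 CPM in the NRP2 hairpin library and 4.82 CPM in the control library, from 68 and 99 reads, a ratio of 0.665 (0.481 to 0.915) that was short of the call. PCDHGC3, a C-type gene known to be expressed outside neurons too, was level at 4.29 CPM in the NRP2 hairpin library and 4.24 CPM in the control library, from 91 and 87 reads (ratio 1.01, 0.747 to 1.38). PCDHGB4 and PCDHGB5, which flank PCDHGA8, were close to level as well, with wide intervals. PCDHGB4 was at 1.41 CPM in both libraries, from 30 and 29 reads (ratio 1.00, 0.581 to 1.73). PCDHGB5 was at 1.27 CPM in the NRP2 hairpin library and 1.36 CPM in the control library, from 27 and 28 reads (ratio 0.934, 0.530 to 1.64). Whether these genes differ from PCDHGA8 was not tested. PCDHGB1, under the mean of 1 CPM, had 3 reads in the NRP2 hairpin library and 16 in the control library, a ratio of 0.182 (0.0339 to 0.635). PCDHGC3 and PCDHGA10 together held 51.3% of the reads of the array in the NRP2 hairpin library (exact 95% interval 45.6 to 57.0) and 47.2% in the control library (42.2 to 52.3). Without them the array was at 7.12 CPM in the NRP2 hairpin library and 10.1 CPM in the control library, a ratio of 0.703 (0.566 to 0.871). That sum over part of the array also depends on how reads of the shared exons were split.

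**Figure D4:**
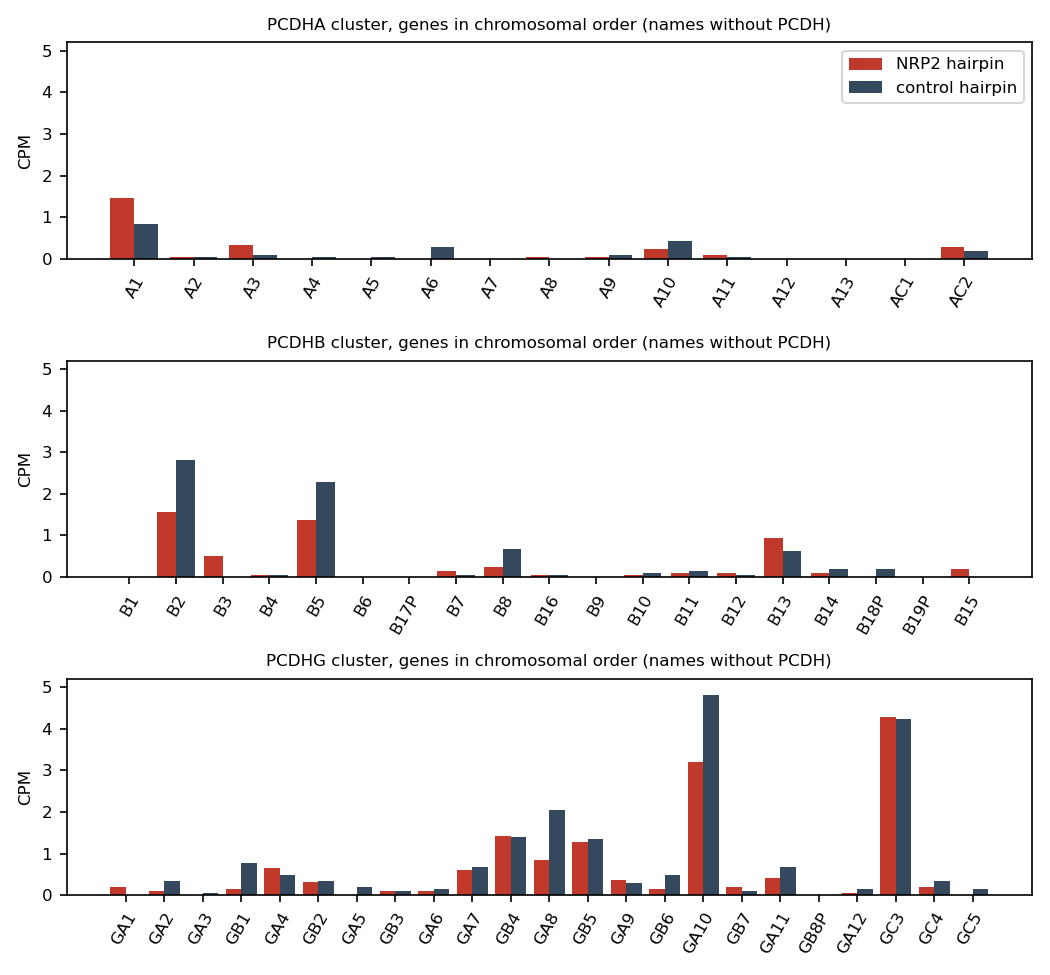
CPM of each clustered protocadherin in chromosomal order within the alpha, beta and gamma arrays, with bars for the NRP2 hairpin library left of those for the control library. PCDHA1, PCDHB2, PCDHB5, PCDHGA10 and PCDHGC3 stand out from neighbours near 0, and no bar passes 5 CPM.

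Read by counting intervals, which reach low genes, 36 members had at least 10 reads over both libraries. The interval lay above no difference for 6 of them, against a background of 30.5% of 15090 genes, and below it for 9, against a background of 22.3%. Among the 21 clustered genes of these 36, 1 interval lay above and 5 lay below. The other 57 members had at most 7 reads in a library, 78 reads in all in the NRP2 hairpin library and 92 in the control library, and 16 of them had none.

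Per kilobase of the longest GENCODE transcript, which allows levels to be set beside each other, CDH1 stood far above the rest at 161 CPM per kilobase in the NRP2 hairpin library and 108 in the control library. CDH3 followed at 12.0 in the NRP2 hairpin library and 11.5 in the control library, and CDH24 at 10.4 in the NRP2 hairpin library and 9.94 in the control library. PCDH1 was at 9.33 CPM per kilobase in the NRP2 hairpin library and 5.81 in the control library. CDH15 stood above PCDH19 in the NRP2 hairpin library, at 1.54 against 1.28 CPM per kilobase, and below it in the control library, at 0.564 against 2.04. The highest clustered genes, PCDHGC3 at 0.908 CPM per kilobase in the NRP2 hairpin library and 0.896 in the control library and PCDHGA10 at 0.695 in the NRP2 hairpin library and 1.04 in the control library, stood far below CDH1 in both libraries.

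Genes that work with cadherins were counted by the same call, beside the shares of 5.78% higher and 3.57% lower over all compared genes. Of 13 catenins and other tail partners compared, 0 passed 1.5-fold in either direction and the median log2 change was 0.06. Beta-catenin (CTNNB1), which binds the tails of classical cadherins, was at 686 CPM in the NRP2 hairpin library and 637 CPM in the control library. Plakoglobin (JUP) was at 726 CPM in the NRP2 hairpin library and 629 CPM in the control library and alpha-catenin (CTNNA1) at 400.0 CPM in the NRP2 hairpin library and 379 CPM in the control library. The level of p120-catenin (CTNND1) was 351 CPM in the NRP2 hairpin library and 361 CPM in the control library. Vinculin (VCL), which binds alpha-catenin under tension, was at 163 CPM in the NRP2 hairpin library and 212 CPM in the control library, a log2 change of -0.38. The 5 desmosomal genes compared, DSG2, DSC2, DSP, PPL and EVPL, had log2 changes from -0.08 to 0.20 and none passed 1.5-fold. Desmoglein 2 (DSG2) was at 268 CPM in the NRP2 hairpin library and 249.5 CPM in the control library, and desmoplakin (DSP) at 228 CPM in the NRP2 hairpin library and 205 CPM in the control library. Of 8 nectins and other junction genes compared, none passed 1.5-fold. Among the most abundant, F11R was at 207 CPM in the NRP2 hairpin library and 198 CPM in the control library and EPCAM at 130.1 CPM in the NRP2 hairpin library and 121 CPM in the control library. The nearest to the call was PVRL3, which encodes nectin-3, at 31.9 CPM in the NRP2 hairpin library and 21.8 CPM in the control library (log2 change 0.53).

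Among 8 other members of the cadherin superfamily compared, 1 was higher and 0 lower, against 5.78% higher and 3.57% lower over all compared genes, with a median of 0.23. CELSR3, a seven-pass cadherin of planar polarity and axon tracts, was at 13.5 CPM in the NRP2 hairpin library and 7.01 CPM in the control library, 1.93-fold higher (1.58 to 2.38). RET, a receptor tyrosine kinase with cadherin-like domains, was at 2.22 CPM in the NRP2 hairpin library and 1.17 CPM in the control library, a log2 change of 0.57 that fell short of the call. CLSTN1 was at 620 CPM in the NRP2 hairpin library and 507 CPM in the control library, and CELSR2 at 122 CPM in the NRP2 hairpin library and 120.4 CPM in the control library.

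Of 12 regulators of clustered protocadherins, 1 was lower and 0 higher, against 3.57% lower and 5.78% higher over all compared genes, with a median of -0.05. SMC1A, a core subunit of the cohesin ring, was at 188 CPM in the NRP2 hairpin library and 295 CPM in the control library, 1.57-fold lower (1.51 to 1.63). CTCF was at 72.1 CPM in the NRP2 hairpin library and 90.3 CPM in the control library and STAG1, another cohesin subunit, at 44.1 CPM in the NRP2 hairpin library and 58.8 CPM in the control library, both short of the call. The cohesin subunits RAD21, SMC3 and STAG2 lay slightly above 0, at log2 changes of 0.14, 0.16 and 0.15. Of 12 enzymes and factors that process cadherins or remove them from the membrane, 1 was higher and 0 lower, against 5.78% higher and 3.57% lower over all compared genes. APH1B, a subunit of gamma-secretase, was at 46.9 CPM in the NRP2 hairpin library and 26.5 CPM in the control library, 1.77-fold higher (1.59 to 1.97). ADAM10, which sheds the outer part of E-cadherin, was at 179 CPM in both.

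**Figure D5:**
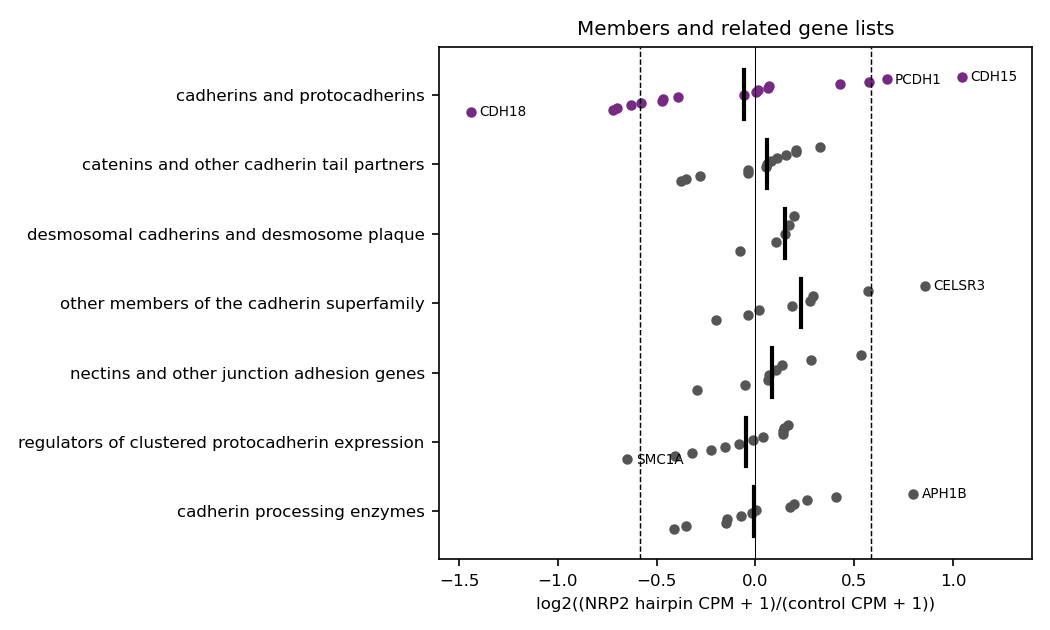
Log2 change, NRP2 hairpin over control with 1 CPM added to each, of the 17 compared members and of the compared genes of 6 related lists, 1 point a gene, with a bar at each median and dashed lines at 1.5-fold. The members spread from -1.44 to 1.05, and of the 6 lists only CELSR3, SMC1A and APH1B pass a dashed line.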

How the data were processed

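RNA of 2 cultures of C4-2B ENZR cells was sequenced, 1 library for the NRP2 hairpin and 1 for the control hairpin. For each gene symbol the authors deposited a normalized signal, TMM-scaled CPM per the labels of the files. The submitters' processing notes name edgeR, RSEM 1.2.15, Bowtie2 2.1.0, bcl2fastq 2.17 and the build hg19, with tool roles, annotation, filters and strand not given in the sources used here. Whole reads were recovered by dividing by the value of 1 read, 0.0472 CPM in the NRP2 hairpin library and 0.0487 CPM in the control library, and 100% of values were whole within 0.01 read. Symbols turned into dates, 28 of 26475, held 0.184% and 0.181% of these reads and were left out.

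Changes used a pseudocount of 1 CPM, a mean of at least 1 CPM and a 1.5-fold call. Intervals were exact conditional binomial (Clopper-Pearson), computed with Python 3.11.15 and scipy 1.17.1 and tested on simulated data. The rule names every member with a mean of at least 1 CPM, allows those with at least 10 reads in a library, and takes from related lists the genes past the call or otherwise the most abundant. Other genes named were chosen after their values were seen. The members and lists were chosen with earlier results of these data known. Sequences are from RefSeq (GRCh38.p14) and GENCODE 29 (GRCh38), another build than hg19; no coordinate of the files was used. Alternatives were other pseudocounts, filters, scalings and thresholds, and an exact conditional binomial test on the reads. The summed level of the neural markers is not reported here.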

Additional observations from a re-analysis of the deposited data

How the results depend on the processing

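No paired analysis was possible because each group holds 1 library and the result comes from no test. The 2 higher members became 1 with a pseudocount of 5 CPM, a mean of at least 5 CPM, equal library totals or a 2-fold threshold, 3 with a pseudocount of 0.25 CPM and 5 with no filter on low values. The 4 lower members became 0 with a pseudocount of 5 CPM and 1 with a mean of at least 5 CPM or a 2-fold threshold, but 6 with a pseudocount of 0.25 CPM and 5 with no filter or any of the 3 other scalings. The exact conditional binomial test on the reads called 4028 genes higher and 2926 lower. Counting intervals with at least 10 reads, an alternative chosen after seeing the data, put 6 members above and 9 below no difference, and 4608 and 3372 of all genes. Over all genes, the 769 higher and 476 lower became 329 and 159 with a pseudocount of 5 CPM, 465 and 310 with a mean of at least 5 CPM, and 194 and 70 at 2-fold. Higher genes made up 61.8% of those called, and 47.6% with equal library totals. The median of the classical cadherins was 0.07 and turned to -0.01 with equal library totals; that of the clustered protocadherins stayed below 0 in the 6 alternatives that gave a value, from -0.32 to -0.07, and no clustered gene reached a mean of 5 CPM. The median of all members, -0.06, was 0.07 with that mean. The beta and gamma array sums stayed below 0 and the alpha sum above 0 under the 3 other scalings. Leaving out the genes with most reads, chosen after seeing the data, turned the log2 ratio of the summed beta array to 0.20 without PCDHB2 and PCDHB5 and that of the alpha array to -0.28 without PCDHA1, while the gamma array was at -0.51 without PCDHGC3 and PCDHGA10. These partial alpha and gamma sums depend on how reads of shared exons were split. Of 180 values for single members under other pseudocounts and scalings, 163 stayed within the counting interval, 17 left it and 8 changed sign. Apart from CDH1, which left it with equal library totals and quantile normalization, values left it only under other pseudocounts. The interval itself is on the scale with 1 CPM added. Signs changed only under other scalings, in CDH3, CDH24, PCDHGB4 and PCDHGC3, whose changes were near 0. Causes beyond these settings were not tested. Depth limits most members: 57 of 93 had fewer than 10 reads.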
